A study of Rattus norvegicus with 21 samples.

Results

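The bladders of rats at 8 and 16 weeks after spinal cord injury (SCI) were compared to see how far the transcriptome of the chronically injured organ still moved over that period. The comparison rested on 6 of 21 libraries, 3 at each time, chosen by their labels and not by any measured value. Every rat was a male Sprague Dawley of wild-type genotype that entered the study at 6 to 7 weeks of age, and the tissue was the full-thickness urinary bladder. The injured animals had a complete transection of the spinal cord at T8 and were taken 2, 8 or 16 weeks later, and the controls were uninjured rats taken at 0, 2, 8 and 16 weeks. The 6 libraries carry the labels of 6 different rats, so a comparison between the weeks is a comparison between animals. Sprague Dawley is an outbred stock. The 16-week rats were also 8 weeks older, and within the injured arm time since injury and age cannot be told apart.

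Transection removes the descending control of the bladder from the brainstem. The organ is at first without reflexes and fills passively. Later a spinal reflex takes over, the detrusor muscle contracts during filling and against a closed sphincter, and the wall thickens by growth of smooth muscle and deposition of matrix. RNA from the full wall mixes urothelium, smooth muscle, connective tissue, nerve, vessel and immune cells. Fewer cells of a type and less RNA per cell cannot be told apart in such bulk samples. The counts are listed by Ensembl gene identifier without a symbol, and 0 of the 32754 identifiers could be matched to a name in the reference table used here. Marker genes of the bladder wall, and pathways of matrix, muscle, nerve or inflammation, were therefore not examined, and genes are described by their identifier or by their rank.

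Ribosomal RNA was removed and stranded libraries were sequenced, and the authors deposited whole-number counts per gene. The 6 injured libraries held 8087726 to 10740933 counts, with a median of 9316312. The 10 most abundant genes took 6.31% to 8.81% of the counts, and 19079 to 19589 genes had at least 1 count. Scaling factors lay between 0.996 and 1.09. Of the 6, replicate 2 at 8 weeks stood furthest from the others. It had 35 genes at least 2-fold above every other injured bladder of these weeks and 13 at least 2-fold below, of 13191 genes with a mean of at least 2 CPM, counts scaled to a common library size. The other 5 libraries had 1 to 11 such genes above and 4 to 16 below. Counts and distances that moved most with this animal are given with and without it.

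The distance between bladders was measured first. For each pair, the root mean square (RMS) of the difference in log2 CPM was taken over 15225 genes with enough counts to be tested. The 3 pairs at 8 weeks lay at 0.390, 0.482 and 0.555, and the 3 pairs at 16 weeks lay at 0.424, 0.428 and 0.437. The 9 pairs made of one animal from each time lay between 0.389 and 0.498, with a median of 0.453. The pairs between the weeks thus lay within the range of the pairs at 8 weeks, apart from the closest, while their median was above all 3 pairs at 16 weeks. The closest pair of all joined 8 weeks replicate 3 with 16 weeks replicate 1, and the most distant was made of replicates 1 and 2 at 8 weeks. Between 3.07% and 5.57% of genes differed more than 2-fold in a pair from different weeks, against 2.93% to 7.18% for pairs within 8 weeks and 3.76% to 4.27% for pairs within 16 weeks. Without replicate 2 the remaining pair at 8 weeks lay at 0.390, and the 6 remaining pairs between the weeks had a median of 0.435 and a highest value of 0.498, above the 0.437 that was then the largest distance within a time. Without this animal the highest distance between the times thus passed every distance within a time, while the median of the pairs between the times did not.

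**Figure D1:**
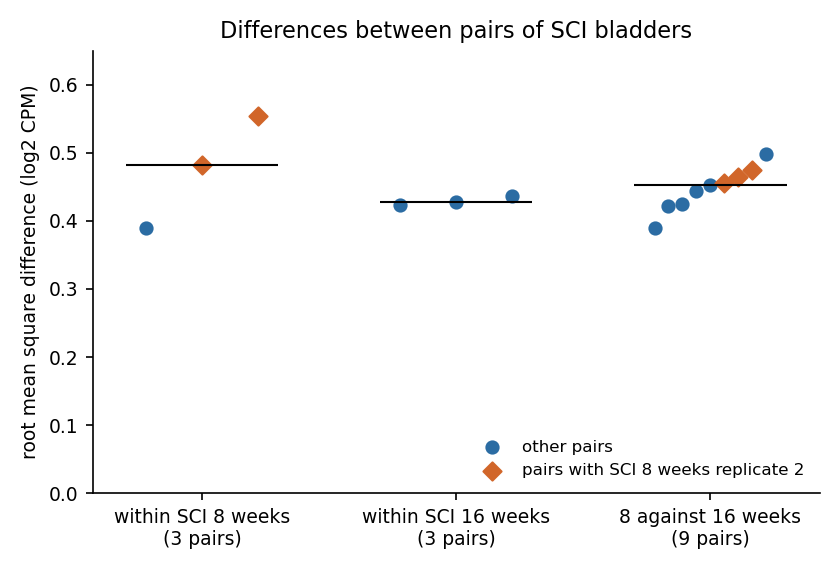
Each point is a pair of injured bladders, placed by the RMS difference over 15225 genes (vertical axis, log2 CPM) and by whether both animals came from 8 weeks, from 16 weeks or 1 from each; lines mark medians and diamonds mark pairs with replicate 2 at 8 weeks. The 9 pairs between the weeks span 0.389 to 0.498 and lie inside the 0.390 to 0.555 of the pairs at 8 weeks except for the closest.

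The share of the total sum of squares that lay between the 2 times was taken next. It was 18.4% for the injured bladders, where the 20 possible arrangements of 6 animals into 3 and 3 gave shares from 16.3% to 28.0% (one-sided exact permutation p = 0.6). In control bladders the same split, 16 against 8 weeks, took 27.1%, the largest share of its 20 arrangements (one-sided exact p = 0.1). Injured bladders at 8 against 2 weeks took 24.0% (one-sided exact p = 0.3). After adjustment over these 3 comparisons the exact p were 0.6, 0.3 and 0.45. With 3 animals against 3, the smallest exact p these permutation tests can give is 0.1. Without replicate 2 at 8 weeks the share in injured bladders was 29.8% (one-sided exact permutation p = 0.2), and fewer animals by themselves raise such a share.

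Gene by gene, no difference between 16 and 8 weeks passed the test of edgeR. The quasi-likelihood test of edgeR called 0 of 15225 genes at an adjusted p of 0.05 (0% of genes), and the smallest adjusted p was 0.697. At an unadjusted p of 0.05, 275 genes (1.81%) passed, 121 of them higher at 16 weeks (0.795%) and 154 lower (1.01%). DESeq2 called 1 gene of 15222 (0.00657%), described below with its values. The median log2 fold change was -0.01, the median size of the change was 0.09, 90% of genes changed by less than 0.39 and 99% by less than 1.12. A change of more than 2-fold in either direction was estimated for 221 genes (1.45%). Leaving out each of the 6 animals in turn kept the edgeR count at 0, and without replicate 2 at 8 weeks 630 genes passed at an unadjusted p of 0.05.

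A count of 0 does not bound the changes, so an interval was computed for each gene. The 95% interval of the fold change, 16 against 8 weeks, lay wholly inside 2-fold up or down for 12523 of 15225 genes (82.3%) and wholly inside 1.5-fold for 9231 (60.6%). An equivalence test with Benjamini-Hochberg adjustment, which asks whether a change as large as 2-fold can be refused in both directions, passed for 12994 genes (85.3%). The interval was wholly beyond 2-fold for 0 genes, and it excluded no change for 266. The intervals were not adjusted for the number of genes. No interval could be computed for 9 genes, and these were counted as not bounded. The median standard error was 0.18 on the log2 scale.

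How tightly a gene was bounded followed its level. The tested genes were divided into 4 equal classes by mean level in the injured bladders. In the highest class (58.3 CPM and above), 3722 of 3806 genes (97.8%) were bounded within 2-fold and 87.6% within 1.5-fold. In the upper middle class (21.5 to 58.3 CPM) 97.6% were bounded within 2-fold, and in the lower middle class (5.53 to 21.5 CPM) 92.3%. In the lowest class (up to 5.53 CPM) only 1574 of 3807 genes (41.3%) were bounded, and 5.99% were bounded within 1.5-fold. The largest change that the interval of a gene allowed had a median of 1.23-fold in the highest class and 1.42-fold in the lower middle class. It reached 2.16-fold in the lowest class, where the interval did not leave out a change of 2-fold for most genes. Of the 221 genes with an estimate beyond 2-fold, 181 were in the lowest class and 5 in the highest.

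**Figure D2:**
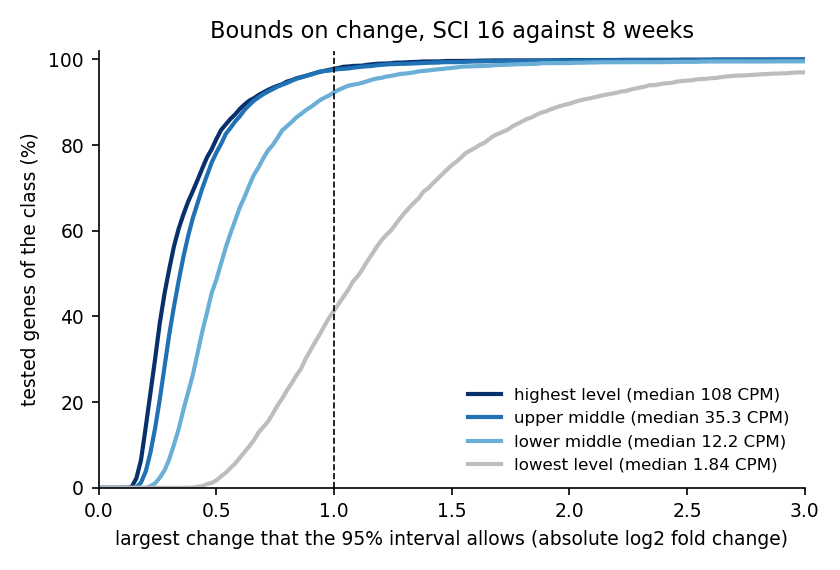
The horizontal axis gives the largest change from 8 to 16 weeks that the 95% interval of a gene allows (absolute log2 fold change), and the vertical axis the percentage of genes at or below it, for 4 equal classes of the tested genes by level. At the dashed line (2-fold) the curves stand at 41.3%, 92.3%, 97.6% and 97.8% from the lowest to the highest class.

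Separation of the animals was counted as a second measure. In 1053 of 15225 genes (6.92%) all 3 animals at 16 weeks lay on the same side of all 3 animals at 8 weeks, 452 of them higher at 16 weeks (2.97%) and 601 lower (3.95%). For a single gene, separation of 3 animals from 3 has a two-sided exact permutation p of 0.1, so separation alone was not read as a change. Most of these separated differences were small. Their median size was 0.26 on the log2 scale, 735 of them were bounded within 2-fold, and 189 passed an unadjusted p of 0.05. Separated genes were found at every level, with 307 in the lowest class, 291 and 263 in the middle classes and 192 in the highest. Among the 13191 genes with a mean of at least 2 CPM, 883 were separated, and 25 of those changed by more than 2-fold, 13 upward and 12 downward. A further 44 genes of this level had an estimate beyond 2-fold although animals of the 2 times overlapped.

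**Figure D3:**
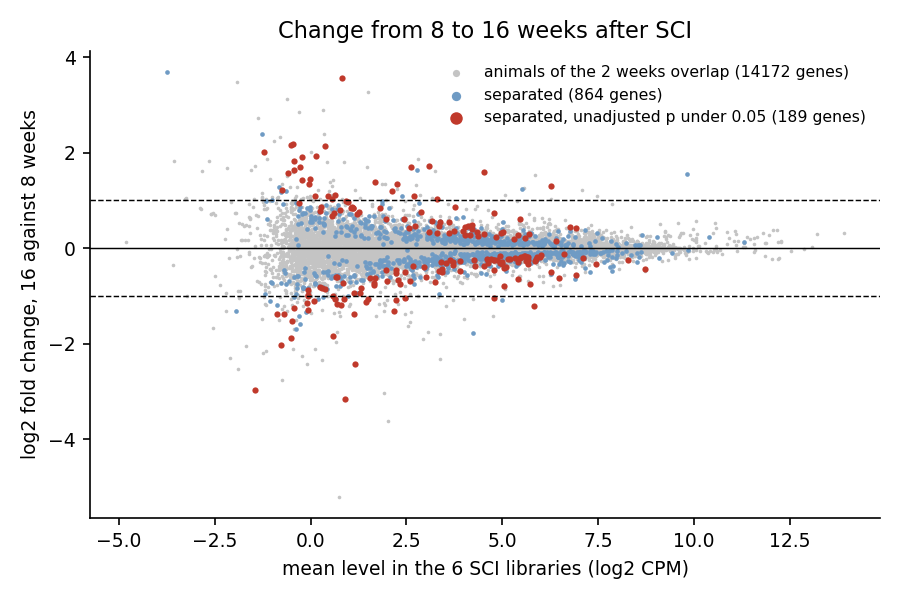
Each point is 1 of 15225 tested genes, placed by its mean level in the 6 injured libraries (horizontal axis, log2 CPM) and its log2 fold change from 8 to 16 weeks (vertical axis); dashed lines mark 2-fold. The 1053 separated genes, 189 of them with an unadjusted p under 0.05, lie mostly near 0 at high levels, and 181 of the 221 changes beyond 2-fold are in the lowest class by level.

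The gene with the smallest p of all was ENSRNOG00000023143. It stood at 10.7, 12.2 and 11.3 CPM in the 3 animals at 8 weeks and at 40.2, 29.8 and 33.0 CPM in the 3 animals at 16 weeks. The weeks were far apart and the animals within each were close, with means of 11.4 ± 0.753 and 34.3 ± 5.32 CPM (SD, n = 3 each). The log2 fold change was 1.59 (SE 0.29), a 3.00-fold difference with a 95% interval of 1.96 to 4.61. With edgeR the adjusted p was 0.697 from an unadjusted p of 4.58e-05, while DESeq2 gave an adjusted p of 0.00224 with the same log2 fold change of 1.59 (SE 0.30). This was the single call of DESeq2 in the comparison. Over the alternatives tried, the log2 fold change of ENSRNOG00000023143 lay between 1.46 and 1.68, and DESeq2 was the only one of them that called it. When only the 6 injured libraries were fitted, edgeR gave it an adjusted p of 0.0563.

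The other groups place these levels. ENSRNOG00000023143 averaged 24.7 ± 7.45 CPM in injured bladders at 2 weeks, and control means were 21.3 ± 5.82, 14.1 ± 5.71, 20.0 ± 6.34 and 29.7 ± 3.00 CPM at 0, 2, 8 and 16 weeks (SD, n = 3 each). The injured bladders at 8 weeks were thus the lowest group of the 7, and those at 16 weeks the highest, and single animals of each overlapped with those of the nearest group, the controls at 2 and at 16 weeks. Against controls of the same week, the log2 difference of ENSRNOG00000023143 was -0.81 at 8 weeks (edgeR adjusted p = 0.0933) and 0.21 at 16 weeks (edgeR adjusted p = 0.67). In controls the change from 8 to 16 weeks was 0.57 (95% interval -0.03 to 1.17). The change in injured bladders exceeded the change in controls by 1.02 (edgeR unadjusted p = 0.0237, adjusted p = 0.673), a difference between the arms that did not pass the test.

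Among genes with a mean of at least 2 CPM, the largest separated rise was in ENSRNOG00000047351. It stood at 5.32, 5.46 and 1.08 CPM at 8 weeks and at 10.9, 8.86 and 19.3 CPM at 16 weeks. The animals did not overlap, but the levels were low and spread within each time, and the lowest library held 11 counts. The log2 fold change was 1.71 (SE 0.77, 95% interval 0.11 to 3.33, edgeR adjusted p = 1). In controls ENSRNOG00000047351 also had a positive estimate from 8 to 16 weeks, 2.56 (95% interval 0.51 to 4.63), with single controls at 16 weeks of 0.597, 3.90 and 15.2 CPM.

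Among genes with a mean of at least 2 CPM, the 2 largest separated falls both rested on a high value in replicate 1 at 8 weeks. ENSRNOG00000045797 stood at 7.90, 1.09 and 2.25 CPM at 8 weeks and at 0.820, 0.597 and 0.693 CPM at 16 weeks. The log2 estimate was -2.43 (SE 1.17, 95% interval -4.91 to 0.00, edgeR adjusted p = 1), and -1.25 without replicate 1 at 8 weeks. The lowest library for ENSRNOG00000045797 held 6 counts. ENSRNOG00000010478 stood at 56.1, 18.7 and 12.4 CPM at 8 weeks and at 10.9, 8.26 and 6.35 CPM at 16 weeks. The animals of the 2 times were separated by a narrow margin between 12.4 and 10.9 CPM. The log2 fold change of ENSRNOG00000010478 was -1.78 (SE 1.08, 95% interval -4.05 to 0.48, edgeR adjusted p = 1), and -0.86 without replicate 1 at 8 weeks. In controls this gene ranged from 7.21 to 89.0 CPM at 8 weeks and from 5.55 to 127 CPM at 16 weeks, a spread wider than the difference between the injured groups.

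**Figure D4:**
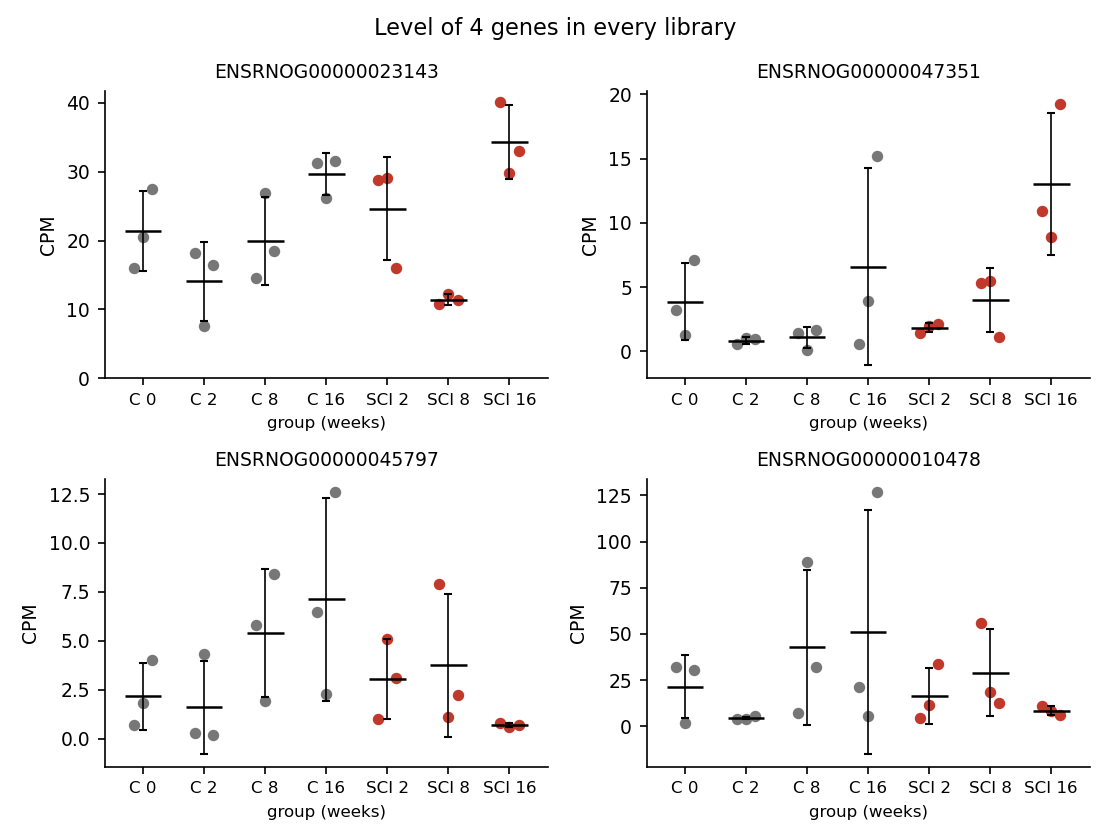
Level (CPM, linear axis) of the 4 named genes in all 21 libraries, by group, with controls (C) in grey and SCI in red and the weeks after each; lines and bars give the mean and SD of 3 animals. The 3 SCI animals at 8 weeks and the 3 at 16 weeks are tight and apart for ENSRNOG00000023143, while in the falling genes a single animal at 8 weeks lies high.

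Other separated genes are given by rank of size, again among genes with a mean of at least 2 CPM. The fifth-largest separated rise belonged to an abundant gene, at 446, 703 and 242 CPM at 8 weeks and 1334, 890 and 1850 CPM at 16 weeks. Its log2 fold change of 1.55 had a 95% interval of -0.53 to 3.63, and its change in controls was 1.60 (95% interval -0.50 to 3.69). Single controls stood at 68.6, 51.7 and 404 CPM at 8 weeks and at 27.6, 430 and 1129 CPM at 16 weeks. The eighth-largest rise was tighter, at 33.8, 63.9 and 35.5 CPM at 8 weeks and 112, 98.6 and 117 CPM at 16 weeks. With a log2 fold change of 1.30 (95% interval 0.64 to 1.96) it had the third-smallest unadjusted p, 7e-04 by edgeR, with an adjusted p of 1. Its change in controls was 0.07 (95% interval -0.59 to 0.72), and the difference between the arms did not pass the test (edgeR adjusted p = 0.625). Among falls, the fifth-largest went from 90.8, 51.1 and 98.0 CPM to 35.6, 39.6 and 28.0 CPM. Its log2 fold change was -1.22 (95% interval -1.97 to -0.46), against -0.05 in controls (95% interval -0.83 to 0.74). For this gene too the difference between the arms did not pass the test (edgeR adjusted p = 0.721).

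Some of the separated genes had also been called between injured and control bladders at 8 weeks. Among genes with a mean of at least 2 CPM, the log2 fold changes of the 10 largest separated rises lay between 1.21 and 1.71. Those of the 10 largest separated falls lay between -2.43 and -1.05. The 95% interval excluded no change for 7 of the rises and 6 of the falls, and no edgeR adjusted p of the 20 genes was below 0.697. Of the 20, 5 were called between injured and control bladders at 8 weeks, 2 among the rises and 3 among the falls, where 8.41% of all tested genes were called at that time, and 0 were called at 16 weeks, where 5.62% of all tested genes were called. These comparisons share the injured libraries with the change from 8 to 16 weeks, so the values are set side by side without a test of their relation. The sixth-largest rise stood at 1.72, 1.97 and 1.66 CPM at 8 weeks and 3.63, 6.87 and 3.35 CPM at 16 weeks. Its log2 difference from controls was -2.85 at 8 weeks (edgeR adjusted p = 0.00378) and -0.47 at 16 weeks (edgeR adjusted p = 0.464). In controls this gene changed by -0.99 from 8 to 16 weeks (95% interval -1.78 to -0.21), so the gap narrowed from both sides. The difference between the arms did not pass the test (edgeR adjusted p = 0.42). In the fifth-largest fall the difference from controls was 1.47 at 8 weeks (edgeR adjusted p = 0.0263) and 0.29 at 16 weeks (edgeR adjusted p = 0.643). The eighth-largest fall went from 7.12, 6.11 and 5.77 CPM to 3.16, 3.19 and 2.66 CPM. Its difference from controls was 1.81 at 8 weeks (edgeR adjusted p = 0.01) and 0.51 at 16 weeks (edgeR adjusted p = 0.353). Its change in controls was 0.23 (95% interval -0.54 to 1.00), and the difference between the arms did not pass the test (edgeR adjusted p = 0.639).

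Large estimates also came from genes without separation. The largest estimate without separation, among genes with a mean of at least 2 CPM, was -3.62, for a gene at 1.89, 20.5 and 0 CPM at 8 weeks and 0.117, 0.498 and 1.16 CPM at 16 weeks. No interval could be computed for this estimate, and its lowest library held 0 counts. Here 1 animal, replicate 2 at 8 weeks, carried most of the level. The second-largest was a rise of 3.28 (95% interval 0.03 to 6.59), from 0.515, 0.873 and 0.196 CPM to 0.703, 7.47 and 7.16 CPM, carried by 2 of the 3 animals at 16 weeks, and its change in controls was 3.74. That control value rested on a single animal, with controls at 0.236, 0.344 and 1.01 CPM at 8 weeks and at 0.464, 0.514 and 21.4 CPM at 16 weeks. The next falls of this kind were high in replicate 1 at 8 weeks. One stood at 15.0, 0.982 and 4.11 CPM and then at 1.52, 0.0995 and 0.924 CPM, and another at 37.7, 3.71 and 10.7 CPM and then at 7.03, 0.697 and 3.00 CPM. In both the 2 times overlapped.

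Genes that differed over the same 8 weeks in uninjured rats were followed next, because they were chosen on control libraries that the injured comparison does not use. In controls, 12 genes differed between 16 and 8 weeks at an edgeR adjusted p of 0.05 (0.0788%), 11 of them (0.0722%) higher at 16 weeks by 0.63 to 3.31 on the log2 scale. These control values chose the genes and are given as a description. In injured bladders the estimates for the same 12 genes lay between -0.26 and 0.11, and the smallest unadjusted edgeR p was 0.433. The largest size among these estimates, 0.26, depended on the animals. It was 0.54, 0.64 and 0.52 without replicates 1, 2 and 3 at 8 weeks, and 0.39, 0.36 and 0.37 without replicates 1, 2 and 3 at 16 weeks. The 95% interval in injured bladders left out the control estimate for 12 of 12 genes and lay within 2-fold for 9 of 12. The first of these counts takes no account of the error of the control estimates, which were chosen for being large.

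The gene with the largest control rise stood at 11.5, 13.6 and 11.7 CPM in controls at 8 weeks and at 203, 32.5 and 131 CPM at 16 weeks. In injured bladders it stood at 12.1, 44.3 and 12.7 CPM at 8 weeks and at 15.9, 19.3 and 22.99 CPM at 16 weeks. All 3 older controls thus lay above all 3 older injured animals, while the 8-week animals of both arms overlapped. The second had 12.6, 9.63 and 10.0 CPM and then 28.7, 52.4 and 130 CPM in controls, against 11.2 to 16.9 CPM over all 6 injured animals. For the most abundant of the 12, controls went from 84.6, 87.7 and 91.4 CPM to 160, 109 and 141 CPM, and the injured animals kept to 112 to 124 CPM, above every control at 8 weeks.

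**Figure D5:**
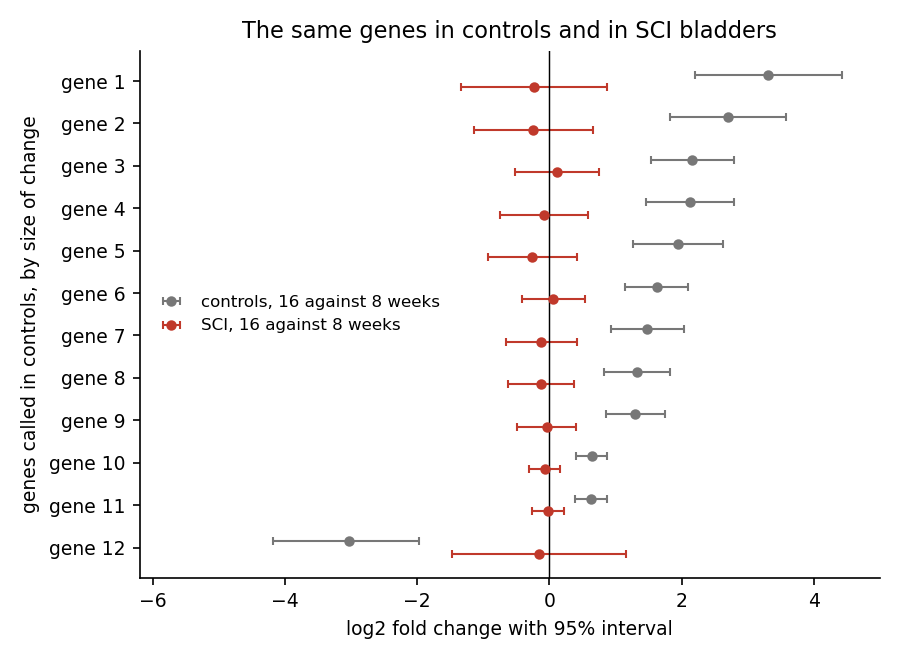
The 12 genes called between control bladders at 16 and 8 weeks, ordered by the control change, with the log2 fold change and 95% interval from 8 to 16 weeks in controls (grey) and in SCI bladders (red). The red estimates lie between -0.26 and 0.11, and no red interval reaches the grey estimate of its gene.

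The difference between the arms was then tested for every gene. The interaction, the change from 8 to 16 weeks in injured minus that in control bladders, was called for 0 of 15225 genes by edgeR (0%), with 1010 genes (6.63%) at an unadjusted p of 0.05 and a smallest adjusted p of 0.326. For the 12 genes the unadjusted interaction p lay between 0.00012 and 0.00221 and the edgeR adjusted p between 0.326 and 0.504, and this test uses the control libraries that chose them. DESeq2 called 16 genes in the interaction, 10 of them among the 12. All 16 had a lower change in injured than in control bladders, and in all 16 the change in controls was the larger in size. The count of 12 itself depended on single controls. It was 0 without control replicate 1 at 8 weeks or replicate 3 at 16 weeks, 1 without control replicate 1 at 16 weeks, 6 and 31 without control replicates 2 and 3 at 8 weeks, and 129 without control replicate 2 at 16 weeks. It was 24 without injured replicate 2 at 8 weeks, which enters the shared estimate of spread, and DESeq2 called 103.

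Wider groups chosen in libraries outside the comparison had medians near 0, with more estimates on one side than on the other. Among 757 genes higher in controls at 16 than at 8 weeks at an unadjusted p of 0.05 (4.97%; median 0.58 in controls), the median change in injured bladders was -0.05, against -0.01 for all tested genes. The estimate was positive for 263 of them and negative for 494, where all tested genes had 7325 and 7900. Of the 757, 14 were separated and higher at 16 weeks in injured bladders (1.85%) and 65 separated and lower (8.59%), where all tested genes gave 2.97% and 3.95%. The 689 genes lower in older controls (4.53%; median -0.45) had a median of 0.04 in injured bladders, with 429 positive and 260 negative estimates, 34 separated upward (4.93%) and 20 downward (2.90%). With any of the 6 animals left out, the median of the first group lay between -0.07 and -0.02 and that of the second between 0.008 and 0.06. Within 2-fold were bounded 74.5% of the first group and 80.0% of the second, against 82.3% of all genes. The genes that differed from controls early, at 2 weeks after injury at an unadjusted p of 0.05, had medians of a like size. For the 377 higher after injury (2.48%) the median change from 8 to 16 weeks was -0.03, and for the 639 lower (4.20%) it was 0.03, with 81.7% and 65.3% bounded within 2-fold. Of the 377, 155 estimates were positive and 222 negative, with 15 genes separated upward (3.98%) and 27 downward (7.16%). Of the 639, 364 were positive and 275 negative, with 27 genes separated upward (4.23%) and 29 downward (4.54%).

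Genes called between injured and control bladders were grouped by the time of the call. At an edgeR adjusted p of 0.05, 138 genes (0.906%) were higher in injured than in control bladders at both times, with a median log2 difference of 0.72 at 8 weeks and 0.73 at 16 weeks. The 185 genes lower at both times (1.22%) had medians of -0.88 and -0.77. These genes were chosen on the libraries compared, and a call at both times favours genes that differ little between them, so the values are a description. From 8 to 16 weeks after injury, 136 of the 138 (98.6%) and 166 of the 185 (89.7%) were bounded within 2-fold, with median changes of -0.03 and 0.04. Without replicate 2 at 8 weeks these medians were -0.14 and 0.15, and without replicate 1 at 8 weeks they were 0.06 and -0.04, so their sign turned with the animals included. For genes chosen at 1 time, the estimates from 8 to 16 weeks were mostly towards the controls when the call was at 8 weeks and away from them when it was at 16 weeks. The 499 genes called higher after injury at 8 weeks (3.28%) had a median change of -0.08, with 421 of the estimates negative, 51 genes separated downward (10.2%) and 95.4% bounded within 2-fold. The 782 genes called lower at 8 weeks (5.14%) had a median of 0.16, with 641 of the estimates positive, 68 genes separated upward (8.70%) and 72.0% bounded. The 362 genes called higher at 16 weeks (2.38%) had a median of 0.03, with 220 positive estimates, 19 genes separated upward (5.25%) and 93.9% bounded. The 493 genes called lower at 16 weeks (3.24%) had a median of -0.08, with 331 negative estimates, 46 genes separated downward (9.33%) and 81.5% bounded. The time of the call fixes the side on which such estimates tend to fall, so no direction of change is read from these 4 groups.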

How the data were processed

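The members, gene groups and tests were chosen with earlier results of these data known. RNA was sequenced as paired-end 51 bp reads, with the reads of both flow cells combined by the authors. The submitters' processing notes list FastQC 0.11.9, MultiQC 1.13, Trim Galore 0.6.10, STAR 2.7.10a, SAMtools 1.17, featureCounts 2.0.3 and the build Rnor_6.0. The authors deposited raw counts per Ensembl gene for 21 libraries, all of labelled batch 1. The strand setting and annotation release were not given in the sources used here, so overlapping and antisense genes may share reads.

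Genes were filtered with filterByExpr of edgeR 4.0.16 (R 4.3.3), which kept 15225 of 32754 genes, and scaled with TMM factors (trimmed mean of M values). All 21 libraries were fitted with 7 group means and no covariate (quasi-likelihood F test, 14 residual degrees of freedom, Benjamini-Hochberg adjustment within each comparison, common biological coefficient of variation 0.160). CPM used the TMM-scaled totals, and log2 CPM a prior count of 2. Standard errors came from the weighted information of the fit and the moderated quasi-dispersion, and 95% intervals from t quantiles on the total degrees of freedom. The lowest total of the 6 libraries, 8087726 counts, makes 1 CPM about 8.09 counts before scaling. Pairs of libraries were compared by a chi-square test over genes with at least 10 counts, and all pairs of the 6 differed by more than sampling noise (chi-square per degree of freedom 6.17 to 34.2), so each was counted as 1 sample. The labels give each library its own rat.

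Named genes were those called by a tool and the largest separated rises and falls among genes with a mean of at least 2 CPM, limited to 2 identifiers in each direction because no identifier had a name. ENSRNOG00000023143 took a place as the DESeq2 call, and the unnamed ranks were chosen after their values were seen. The 27 gene lists prepared could not be applied. The share of sums of squares had an exact permutation test over animals. The scripts were tested on simulated data. Alternatives were DESeq2 1.42.0, RLE factors, library size alone, other count filters, fits of fewer groups, a minimum log2 fold change of 0.5, a bound of 1.5-fold, the replicate number as a block, the 500 most variable genes for the sums of squares, and each replicate left out. Leaving out libraries of the groups not compared was added after seeing the data, as were the alternatives of the gene groups.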

Additional observations from a re-analysis of the deposited data

How the results depend on the processing

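For 16 against 8 weeks after SCI, edgeR called 0 genes in every edgeR fit tried, with 253 to 630 genes at an unadjusted p of 0.05 over the fits of either tool, and DESeq2 called 1. With a minimum absolute log2 fold change of 0.5, 164 genes passed at an unadjusted p of 0.05, and 718 in the interaction. The interaction gave 0 calls in other edgeR fits except 1 without control replicate 3 at 8 weeks and 23 without control replicate 2 at 16 weeks, and DESeq2 gave 16. The share bounded within 2-fold was 51.9% without a count filter, which adds genes of few counts, 60.6% for bounds of 1.5-fold, 87.2% when only the 6 libraries were fitted, and 75.9% to 77.5% with any of the 6 left out. Separated genes numbered 1943 to 3823 with 1 of the 6 left out. Fewer animals separate more easily, and this applies to each of these counts. The highest, 3823, came without replicate 2 at 8 weeks. The share of sums of squares lay between 18.3% and 29.8%, with one-sided exact permutation p from 0.2 to 0.8.

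The adjusted p of ENSRNOG00000023143 ranged from 0.00224 to 1 over its alternatives, and its log2 fold change was 1.58 with the replicate block (edgeR adjusted p = 1). Residuals of same-numbered injured libraries correlated at 0.088, 0.157 and -0.0036. Libraries numbered 1 and 2 correlated best with their own number, and those numbered 3 did not. With 3 animals a time, these correlations cannot decide whether same-numbered libraries share more than the number. With the replicate number as a block, edgeR called 0 genes (309 at an unadjusted p of 0.05), 82.6% were bounded within 2-fold, and the interaction gave 0 calls. With 3 animals a time, about 8 to 11 counts per CPM and no gene names, small changes in genes of low level, and in named pathways, could not be examined.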
